A study of Bos taurus with 15 samples.

Results

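A set of 57 genes of the lactating bovine mammary gland was lower 12 h after dexamethasone (DEX), a synthetic glucocorticoid, and back near its starting level by 24 and 72 h. The genes were taken from the 24616 identifiers of a table of normalized counts, which are reads per gene relative to the reads of the library (CPM), multiplied by a scaling factor of the library. Of these identifiers, 4795 averaged 4 or more normalized counts across the 12 libraries of cows 2, 3 and 4. For every cow the change at a time point was the difference in log2(normalized count + 0.5) from the 0 h library of that cow, and the changes were averaged over cows 2 to 4. A gene was kept when its mean change at 12 h lay between -2.5 and -0.8 with each of the 3 cows below 0, when its mean change at 24 h was smaller than 0.4 in size, and when that at 72 h was smaller than 0.5 in size. The 57 genes are 1.19% of the 4795. Because the values of cows 2 to 4 chose the genes, they are given below as a description without a test. Cow 1 took no part in the choice.

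All 4 animals were non-pregnant Holstein cows that received 40 mg of DEX once by intramuscular injection, immediately after the 0 h biopsy, together with prophylactic ampicillin around the biopsies. Tissue was taken by needle biopsy at 0, 12, 24 and 72 h, and cow 1 has no library at 72 h. In the study 1 cow ceased ruminating by 24 h after DEX and was later removed. Cow 1 was taken to be that animal because it alone lacks the last library. If so, its 24 h library is from an animal that had by then ceased ruminating. Cows without DEX were not part of the design. A separate gland (QTR) was biopsied each time, QTR 1 at 0 h, QTR 2 at 12 h, QTR 3 at 24 h and QTR 4 at 72 h, in every cow. DEX was given in the evening, so by the schedule the 0, 24 and 72 h biopsies shared an hour of the day and those at 12 h did not. Time since DEX, the QTR sampled and, for a value that differs at 12 h alone, the hour of the day cannot be told apart. A lower count in a whole biopsy can come from fewer cells of a type or from less RNA per cell, and these cannot be told apart either.

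Glucocorticoids such as DEX enter the cell and bind the glucocorticoid receptor, which then moves to the nucleus and raises or lowers the transcription of its target genes. Many genes that lose transcription in this way, such as those of inflammatory signalling, do so through interference of the receptor with other transcription factors rather than through a DNA site of the receptor's own. In the lactating udder, glucocorticoids are needed together with prolactin and insulin for milk protein synthesis, and a large single dose can lower milk yield for some days. The level of a transcript reflects both how fast it is made and how fast it decays, and counts at several time points show the level but neither of these rates.

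The table gives Ensembl identifiers without gene names, and 0 of the 24616 could be paired with a name from the annotation used here. No gene is therefore named, no function is given, and the label of mammary tissue was not checked against milk protein genes. Only 2 of the 57 identifiers are printed, that of the gene with the lowest mean change at 12 h and that of the most abundant gene. The others are given by their rank.

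Libraries held between 1804120 and 6228132 reads on genes, and the shallowest was that of cow 4 at 0 h. In cows 2 to 4 the 12 h libraries were even in depth, from 4526974 to 5238539 reads, while those at 0 h ranged from 1804120 to 4605321. The 2 most abundant genes took 47.2% to 54.4% of a library. The scaling factor applied by the authors, taken as the sum of a library's values over that of plain CPM, was 0.997 to 1.05 at 12 h and 1.01 to 1.04 at 0 h in cows 2 to 4, and it was 1.25 in cow 1 at 0 h. The median change over the 4795 genes was 0.07 at 12 h, 0.05 at 24 h and 0.02 at 72 h in cows 2 to 4.

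The summed level of the 57 genes showed the shape of the set. At 0 h cows 2, 3 and 4 had sums of 1734, 1911 and 1632 normalized counts. At 12 h their sums were 795, 782 and 796, which is 45.8%, 40.9% and 48.8% of each cow's own 0 h sum. In this sum the 3 cows were closer to each other at 12 h than at any other time. All 3 sums were below every library of theirs at 0, 24 and 72 h. Single genes were not closer at 12 h. The standard deviation over the 3 cows, as a percentage of the mean, was 22.7% at the median gene at 12 h. It was 21.1% at 0 h, 18.7% at 24 h and 22.8% at 72 h. At 24 h the sum had returned to 1940 in cow 2, above its own 0 h value, to 1448 in cow 3, at 75.8% of its 0 h value, and to 1597 in cow 4, at 97.9%. At 72 h the sums were 1688, 1963 and 1774 in cows 2, 3 and 4, between 97.3% and 108.7% of 0 h.

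Much of that sum came from few genes. The 3 most abundant genes made up between 39% and 50.3% of it in any library. Without them, the sums at 12 h were 45.6%, 41.2% and 47.2% of 0 h in cows 2, 3 and 4. The rule limits the mean change of every gene at 12 h in these cows, whatever its abundance, so a like share follows from the choice. In cow 1, which was not in the rule, the sum at 12 h was 40.9% of 0 h without the 3 genes and 40.1% with them. At 24 h, without the 3 genes, the sums were 101.5%, 77.6% and 93.1% of 0 h.

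**Figure D1:**
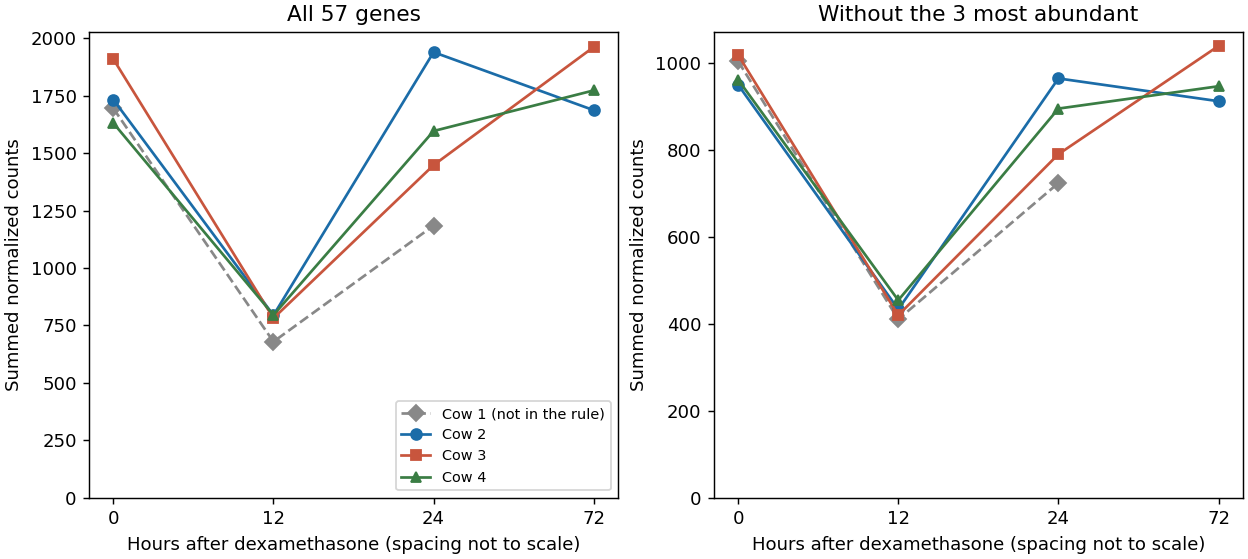
Summed normalized counts of the 57 genes (left) and of the 57 without the 3 most abundant (right) in each library, against hours after DEX, with a line for every cow. All 4 lines drop at 12 h, where cow 1 is lowest with 679, and cow 1, which was not in the rule, is lowest again at 24 h with 1185.

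Cow 1 is the only animal whose values did not choose the genes. Its summed level started at 1696 normalized counts, was 679 after 12 h and stood at 1185 after 24 h. At 12 h this was 40.1% of its 0 h level, slightly below the range of cows 2 to 4. At 24 h it was 69.9%, also below the range of the other cows. All 57 of the 57 genes were lower at 12 h than at 0 h in cow 1, where 47.2% of the 4795 genes were. A decrease of 0.8 or more on the log2 scale was seen for 47 of the 57, against 11.1% of the 4795. The median change of the 57 in cow 1 at 12 h was -1.26, with the middle part of the genes, from the 25th to the 75th percentile, between -1.68 and -0.91. The median over the 4795 genes in cow 1 was 0.04. Cow 1 is a single animal, so these values have no replicate error and no test was made, and its changes at 12 and 24 h share 1 library at 0 h.

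At 24 h, 50 of the 57 genes were higher than at 12 h in cow 1, against 44.9% of the 4795 genes. The 12 h library was the lowest of the 3 libraries of cow 1 for the same number, 50 of 57, against 28.3% of the 4795. The return was partial in cow 1. Its median change at 24 h was -0.42, with the 25th to 75th percentiles at -0.89 and 0.06, while the 4795 genes had a median of -0.06. In cow 1 at 24 h, 21 genes (36.8%) were within 0.4 of their 0 h value, against 45.7% of the 4795 genes, and 18 (31.6%) were still lower by 0.8 or more, against 15.4%. In cows 2, 3 and 4 the median change at 24 h was 0.05, -0.24 and -0.18, and 0, 5 and 3 genes were lower by 0.8 or more, which the rule itself keeps few.

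In cow 1 the genes with most reads were like the 57 at 12 h, and their median was lower at 24 h. Among the 14 genes that averaged 20 or more normalized counts, the median change was -1.31 at 12 h, from -2.23 to -0.24, and -0.61 at 24 h, from -2.76 to 0.38. The medians of the 57 were -1.26 and -0.42. Of these 14, 5 were within 0.4 of 0 h at 24 h and 5 were lower by 0.8 or more, against 45.7% and 15.4% of the 4795 genes. Over the 57 genes, the change in cow 1 at 12 h and the mean change of cows 2 to 4 had Pearson's r = 0.58 and Spearman's rho = 0.51 across genes. At 24 h the corresponding values were 0.24 and 0.26. The rule holds the mean change of cows 2 to 4 to a narrower range at 24 h than at 12 h, so the correlations are not like for like. Genes are not independent replicates, and the genes of a cow share its libraries, so these values describe the set only.

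**Figure D2:**
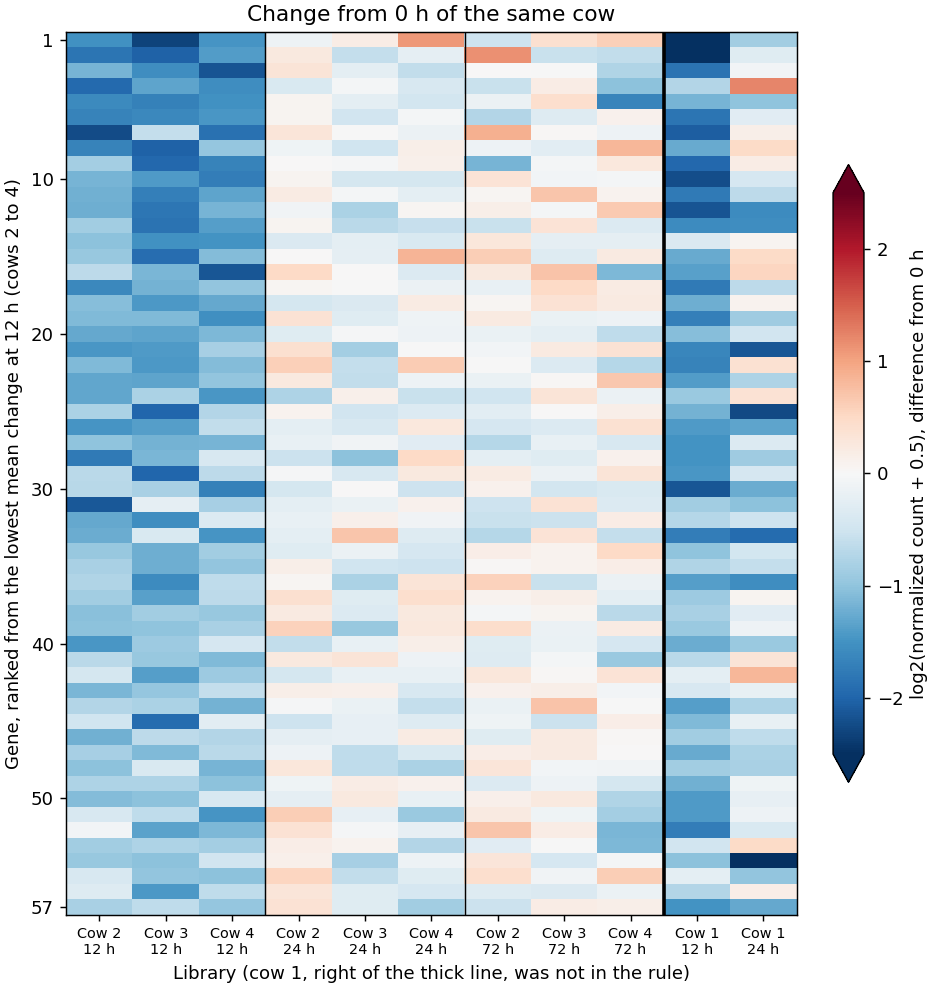
Change from 0 h of the same cow, in log2(normalized count + 0.5), for the 57 genes (rows, from the lowest mean change at 12 h at the top) in each library (columns). Every cell at 12 h is below 0 in all 4 cows, cows 2 to 4 are mostly pale at 24 and 72 h, and cow 1 at 24 h mixes pale cells with 18 genes still lower by 0.8 or more.

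Genes that were lowered at 12 h did not all share this course. In cows 2 to 4, 282 of the 4795 genes met the limits at 12 h. Of these, the 57 described here (20.2%) were back at 24 and 72 h, 109 (38.7%) were still lower by 0.8 or more at 24 h, and 116 (41.1%) were in neither group. The 116 include 19 genes that met the limit of the rule at 24 h but not the limit at 72 h. The 57 and the 109 had mean changes at 12 h with medians of -1.11 and -1.23, and the same limits at 12 h held for both. Their abundance was similar, with medians of 10.9 and 11.6 normalized counts. The median change of cow 1 at 12 h was -1.26 in the 57, -1.31 in the 109 and -1.18 in the 116, and 103 of the 109 and 110 of the 116 were lower. At 24 h the median in cow 1 was -0.42 in the 57, -1.38 in the 109 and -0.63 in the 116. A change of -0.8 or lower at 24 h was found in cow 1 for 31.6% of the 57, 74.3% of the 109 and 46.6% of the 116. A value within 0.4 of 0 h at 24 h was as frequent in the 116 (36.2%) as in the 57 (36.8%), and was found for 8.26% of the 109. The 25th to 75th percentiles in cow 1 at 24 h were -0.89 to 0.06 in the 57, -1.30 to -0.10 in the 116 and -2.15 to -0.77 in the 109, so the ranges overlapped. The difference between the sets was not tested, since the genes come from the same 3 libraries of 1 cow.

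**Figure D3:**
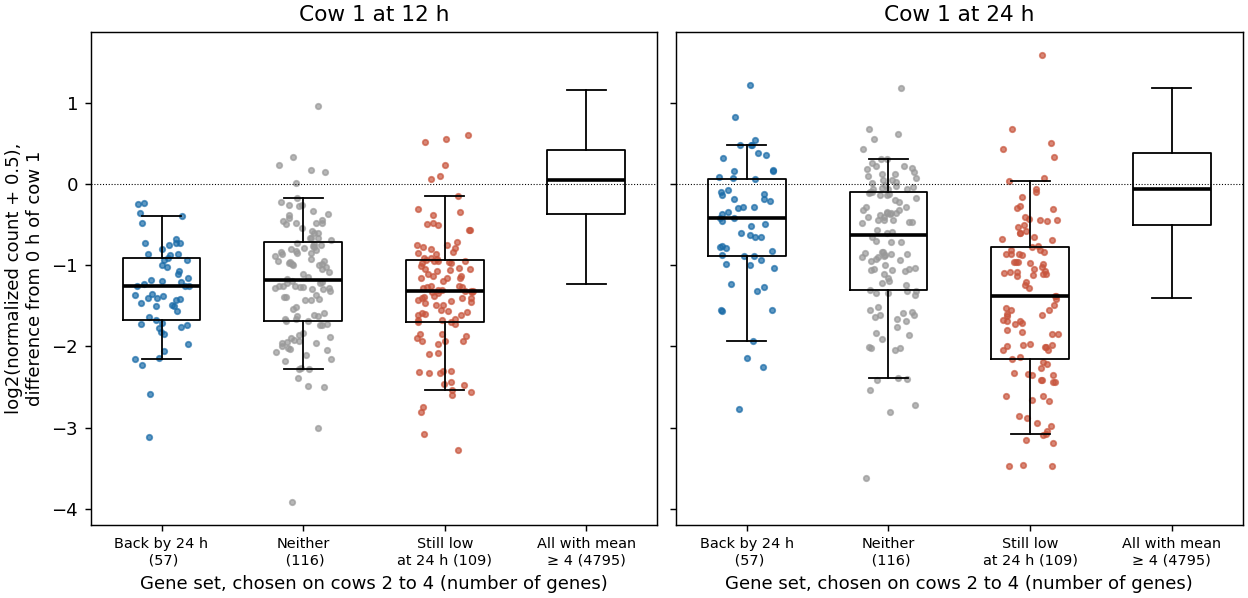
Change in cow 1 from its 0 h library at 12 h (left) and 24 h (right), in log2(normalized count + 0.5), for gene sets chosen on cows 2 to 4 (points are genes, boxes the quartiles and median, whiskers the 5th and 95th percentiles, points not drawn for the 4795 genes). The 3 lowered sets overlap at 12 h with medians of -1.26, -1.18 and -1.31, while at 24 h the medians are -0.42, -0.63 and -1.38.

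Within cows 2 to 4, the mean change of the 57 genes at 12 h ran from -1.76 to -0.80, with a median of -1.11, which is 46.4% of the level at 0 h. The gene with the lowest change kept 29.4% of its 0 h level on this scale and the one with the smallest change 57.4%. A mean change of -1.5 or lower was reached by 8 genes and one of -1 or lower by 35. Cows 2, 3 and 4 had median changes at 12 h of -1.04, -1.31 and -1.03, and the largest of the 4 decreases was in cow 1 for 21 genes, in cow 2 for 11, in cow 3 for 18 and in cow 4 for 7. The standard deviation of a gene's change over cows 2 to 4 was 0.34 at the median gene, and 24 genes had one under 0.3. For 41 of the 57 the mean change was at least 2 times its standard deviation over the 3 cows, which the rule itself favours. For 36 of the 57, all 3 values at 12 h were below every value at 0, 24 and 72 h in cows 2 to 4, against 2.96% of the 4795 genes, and with cow 1 included 26 kept all 4 values at 12 h below the other 11 libraries, against 1.5%.

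At 24 h the mean change of the 57 genes ran from -0.40 to 0.38, and 45 genes were below 0 and 12 above. At 72 h it ran from -0.47 to 0.32, with 36 genes below 0 and 21 above. Both ranges are set by the rule. The mean over cows hid differences between them. In 41 genes at least 1 of cows 2 to 4 was 0.4 or more away from 0 h at 24 h, and in 33 genes at least 1 cow was 0.5 or more away at 72 h. The genes below 0 at 24 h in each of the 3 cows numbered 9, and 0 were above 0 in each.

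ENSBTAG00000020196 had the lowest mean change at 12 h. It had 7.24, 11.1 and 7.53 normalized counts in cows 2, 3 and 4 at 0 h, 2.20, 1.85 and 2.40 at 12 h, 6.60, 12.8 and 16.4 at 24 h, and 4.89, 14.9 and 11.7 at 72 h. The values at 12 h lay below all others of these cows, and those at 24 and 72 h spread more widely than those at 0 h. Its mean change was -1.76 ± 0.47 (SD, n = 3 cows) at 12 h, 0.38 ± 0.62 at 24 h and 0.16 ± 0.60 at 72 h. In cow 1, ENSBTAG00000020196 started at 10.2 normalized counts, was 0.74 after 12 h and 5.36 after 24 h, a change of -3.12 and then -0.87. This gene rests on 9 to 12 reads per library at 12 h in cows 2 to 4 and on 4 reads in cow 1, so the depth of its minimum is loosely fixed.

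ENSBTAG00000030587 was the most abundant gene of the set. It had 408, 393 and 331 normalized counts in cows 2, 3 and 4 at 0 h, 167, 157 and 166 at 12 h, 483, 256 and 302 at 24 h, and 364, 401 and 531 at 72 h. The 3 cows were nearly equal at 12 h, from 757 to 826 reads, and differed most at 24 h. Cows 3 and 4 were then still below all 0 h values and cow 2 was above them. The mean change of ENSBTAG00000030587 was -1.20 ± 0.18 (SD, n = 3 cows) at 12 h, -0.17 ± 0.43 at 24 h and 0.18 ± 0.44 at 72 h. In cow 1 it started at 387 normalized counts, was 146 after 12 h and 227 after 24 h, a change of -1.41 and then -0.77.

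**Figure D4:**
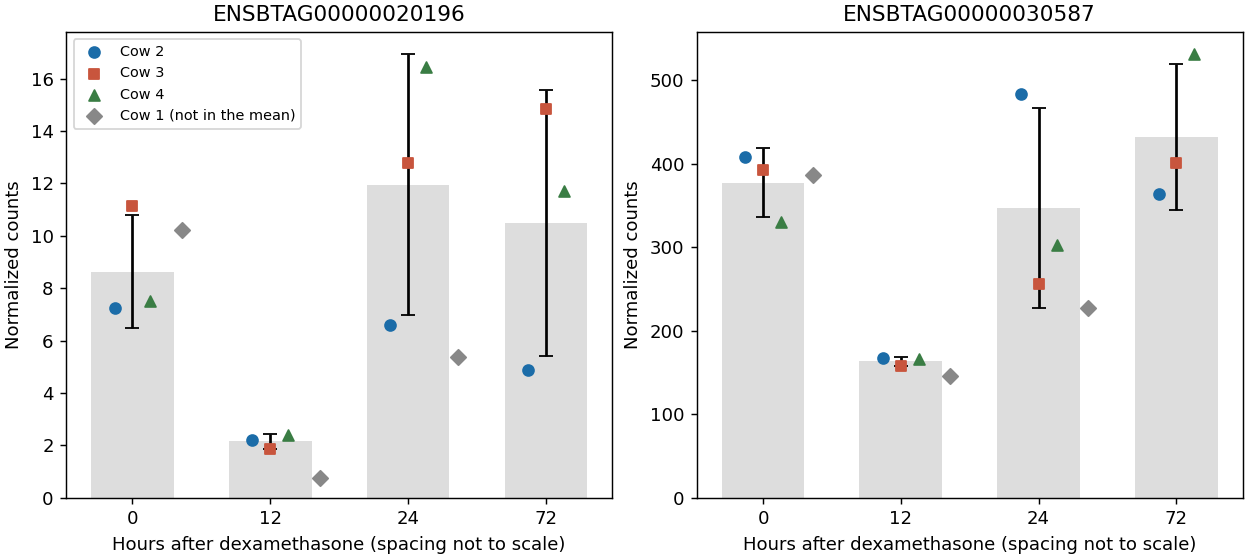
Normalized counts of the gene with the lowest mean change at 12 h (left) and of the most abundant gene of the set (right) against hours after DEX. Bars and error bars are the mean and SD of cows 2 to 4, points are single libraries, and cow 1 (diamonds) stands beside the bars; in both genes all 4 libraries at 12 h lie below every other library.

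The next most abundant genes differed in how the cows returned. The second most abundant gene had 240, 360 and 201 normalized counts in cows 2, 3 and 4 at 0 h, and between 128 and 140 at 12 h. It was thus uneven between cows before DEX and even at 12 h, and in cow 1 it was lower at all times, with 137 at 0 h, 72.7 at 12 h and 143 at 24 h. The third most abundant was nearly equal in cows 2 to 4 at 0 h, from 137 to 140 normalized counts, and had 47.9 to 64.8 at 12 h and 113 to 176 at 24 h. In cow 1 it went from 169 to 51.2 and had 91.3 at 24 h. The fifth most abundant went the other way in cow 1 after 12 h. It had 61 to 91.7 normalized counts at 0 h, 22 to 37.5 at 12 h and 50.5 to 81.1 at 24 h in cows 2 to 4, but 79.8, 25.4 and 17.8 in cow 1. It was 1 of the 7 genes that were lower in cow 1 at 24 h than at 12 h.

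The mean level of the 57 genes ran from 4.02 to 330 normalized counts with a median of 10.9, against 13.2 over the 4795 genes. A mean of 20 was reached by 14 of them (24.6%), against 34.4% of the 4795, and a mean of 100 by 3 (5.26%), against 7.30%. Across the 57 genes, the log2 mean level and the mean change at 12 h had Pearson's r = -0.01 and Spearman's rho = -0.05, both from the same 12 libraries. All 57 had a read in every one of the 15 libraries. At 12 h in cows 2 to 4 they held between 2 and 826 reads per library, and 27 had under 20 reads in at least 1 of the 3 libraries. For such genes counting error adds to the differences between cows. At 0 h the reads ran from 6 to 1860.

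The limits of the rule cut through a continuous range. The 2 genes just inside the limit of -0.8 at 12 h had mean changes of -0.8001 and -0.8002, and the 2 just outside had -0.7997 and -0.7979. For the size of the change at 24 h, the nearest genes inside were at 0.39 and 0.40 and the nearest outside at 0.42. For 72 h they were at 0.47 inside and 0.51 outside. The limit at 24 h removed 158 genes that met the others, of which 155 were below 0 at 24 h, and the limit at 72 h removed 19. No gene of the set came near -2.5, and 1 gene below that limit met the other limits.

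Membership depended on the choice of cows. Applied without cow 2, the rule chose 61 genes, of which 32 were among the 57. Without cow 3 it chose 62, of which 33 were among the 57, and without cow 4, whose 0 h library was the shallowest, it chose 84, of which 42 were. Each of these sets was then read in the cow left out, a reading decided on after the data had been seen. In cow 2, 54 of the 61 genes were lower at 12 h than at 0 h, with a median change of -0.91. In cow 3 it was 57 of 62 with a median of -0.99, and in cow 4 it was 73 of 84 with a median of -0.82. Of all genes passing the abundance limit, 44.9%, 43.8% and 44.5% were lower in those cows. The genes that were higher at 24 h than at 12 h were 51 of 61 in cow 2, 53 of 62 in cow 3 and 74 of 84 in cow 4, against 54.1%, 47.9% and 49.7% of the genes passing the abundance limit. Their median changes at 24 h were -0.083, -0.31 and -0.13 in cows 2, 3 and 4, all nearer to 0 than the -0.42 of cow 1. Fewer than all genes kept their direction in the cow left out, while in cow 1 all 57 did. The sets read in a cow left out were chosen on fewer cows than the 57, so these readings are not like for like.

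Differential expression over all 13525 genes with a read in cows 2 to 4 was fitted with limma, with the correlation between libraries of a cow in the model. At an adjusted p under 0.05 (Benjamini-Hochberg), 34 of the 57 genes were lower at 12 h than at 0 h, where 1.61% of all genes tested were. Among the 4795 genes that met the abundance limit, 3.65% were. From 12 h to 24 h, 17 of the 57 were higher, where 0.318% of all genes tested and 0.834% of the 4795 were. Both contrasts were used to choose the genes, so these counts only say how many of them the fit also called. With edgeR on the recovered reads and cow as a term the counts were 50 and 38, where 3.19% and 1.78% of all genes were called in these directions. With limma the counts were 14 and 1 without cow 2 (0.531% and 0.0308% of all genes), 11 and 3 without cow 3 (0.478% and 0.0462%), and 13 and 0 without cow 4 (0.514% and 0%), so calls became fewer over all genes as well. Without cow 4, 1017 of the 13047 genes tested had an unadjusted p under 0.05 between 12 h and 24 h in either direction.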

How the data were processed

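RNA of 15 mammary biopsies from 4 cows was sequenced from the ends of transcripts (QuantSeq FWD). The authors trimmed reads with HTStream, aligned them with STAR (version 2.6.0c, per the labels) to Bos taurus UMD3.1 with Ensembl annotation and counted reads per gene. The deposited values are normalized counts, a signal equal to CPM times a scaling factor of the library. Each was a whole multiple of what 1 read was worth in its library (tolerance 1e-04, 100% of values), so reads were recovered. The labels gave the cow and the time of every sample, and the methods gave the gland (QTR).

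The 57 genes, and the gene lists set up for this work, were chosen with earlier results of these data known. The lists were by symbol and were not analysed here, because 0 identifiers could be paired with a symbol, and promoter motifs were not analysed here either. The rule for genes to be named therefore came down to at most 2 identifiers, for which the lowest change at 12 h and the highest mean were taken.

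Changes are differences of log2(normalized count + 0.5), which understate the change of low genes. limma (version 3.58.1, R 4.3.3) was run on the 12 libraries of cows 2 to 4 (lmFit, eBayes with trend = TRUE), with duplicateCorrelation for cow (consensus 0.0179). It was also run on simulated reads, which held no difference between cows, so that run does not check the term for cow. Libraries of a cow come from 1 animal, so cow numbers pair the samples, and their deviations from time point means correlated in 18 of 18 pairs (lowest 0.149). Recovered reads were also fitted with edgeR 4.0.16 and with DESeq2 1.42.0 as alternatives, besides other pseudocounts, filters and scalings, and each cow left out.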

Additional observations from a re-analysis of the deposited data

Results flagged for a closer look

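Dixon's test for a single distant library was applied to 17 sets of 4 values, 1 from each cow at 0, 12 or 24 h. It picked out 2 of them, and chance alone flags about 1 in 20 groups. At 12 h the summed level of the 57 genes was 679 normalized counts in cow 1, below the 782 to 796 of cows 2 to 4, and the gap to the nearest cow was 0.879 of the whole range. The values of cows 2 to 4 also chose the genes, so this is a description and not a test. At 0 h the sum in cow 1 was 1696, within the range of the others. The scaling factor applied by the authors at 0 h was 1.25 in cow 1, above the 1.01 to 1.04 of cows 2 to 4, and here the gap was 0.862 of the range. With median-ratio scaling in its place, the median change of the 57 genes in cow 1 was -1.26 at 12 h and -0.38 at 24 h. The part of depth, animal and QTR in either value was not tested.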

How the results depend on the processing

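With 27 of the 57 genes under 20 reads in a 12 h library, 3 cows in the rule and 1 outside it, membership of single genes is loosely determined. The number of genes chosen by the rule was between 45 and 72 under a pseudocount of 0.1 or 2, median-ratio scaling, quantile normalization and the rule with all 4 cows, and 30 when genes had to average 10 or more normalized counts, all 30 of them among the 57 by construction. It was 61 to 84 when a cow was left out. Of the 57, 36 were chosen again with a pseudocount of 2 and 38 by the rule with all 4 cows. With a pseudocount of 0.1, median-ratio scaling and quantile normalization, 54, 53 and 54 were. In cow 1, 100% of the 57 were lower at 12 h with either pseudocount, both scalings and at least 20 reads at 0 h, and the median change at 12 h was -1.01 with a pseudocount of 2, which shrinks low genes by construction. In the cow left out (chosen after seeing the data), 88.5%, 91.9% and 86.9% were lower in cows 2, 3 and 4, for genes chosen on the remaining cows. Their medians at 12 h were -0.91, -0.99 and -0.82, and at 24 h -0.083 in cow 2 and -0.13 in cow 4.

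Over all genes, limma called 525 genes at 12 h, 312 at 24 h and 95 between 12 h and 24 h. At 72 h it called 0, with 931 of the 13525 genes tested at an unadjusted p under 0.05. Without a cow these were 168 to 203, 78 to 99, 2 to 14 and 0 to 1. With all 15 libraries there were 524 at 24 h, 2 at 72 h and 325 between 12 h and 24 h. With cow as a fixed replicate block there were 3 at 72 h and 234 between 12 h and 24 h, and without the block 501 at 12 h, 280 at 24 h and 90 between 12 h and 24 h. edgeR with cow as a block called 907 at 12 h, 630 at 24 h, 55 at 72 h and 538 between 12 h and 24 h, and DESeq2 22 at 72 h and 315 between 12 h and 24 h. The count between 12 h and 24 h was also 143 with a pseudocount of 0.1, 233 with a mean of at least 10 and 262 with a mean of at least 4. The cause of these moves was not tested. A tally was made for these counts over all genes, the number chosen, and the set in cow 1 or the cow left out. Of its values under alternatives, 63 lay within a limit around the value reported and 34 outside. For counts the limit was 1.5 times the count. For medians it was the standard deviation of the median change over cows 2 to 4, which chose the genes. For percentages it was a binomial interval over the 57 genes in cow 1. That interval treats genes of 1 animal as independent, so the tally is a description only. For the number of the 57 called by the fits, 17 lay within and 11 outside.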
